A study of Homo sapiens with 15 samples.

Results

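Human mitochondrial DNA encodes 22 tRNA genes, and 17 of them lie away from the origin of light-strand replication. These 17 genes were chosen by name from the GENCODE annotation of the 37 mitochondrial genes, leaving out the 5 tRNA genes beside that origin, and no measured value enters that rule. They cover 1163 bases and are 59 to 75 bases long. The data are maps of 3′-OH termini, the free ends of DNA strands, in nuclei of K562, a human chronic myeloid leukemia cell line, of the wild-type genotype. The cells were crosslinked with formaldehyde, and their nuclei were either left undigested (untreated) or digested with nuclease P1, an enzyme that cuts single-stranded DNA, at 0.01 U, at 0.1 U, at 1 U or at 10 U. Each of the 5 amounts had 3 biological replicates, 15 samples in all. The untreated samples went without P1, and the crosslinking, the cell line and the genotype were the same in all samples. One culture line stands for one cell type, and mitochondria are present only as far as they came down with the nuclei.

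Mitochondrial tRNAs carry amino acids to the mitochondrial ribosome. Most of their genes lie between the rRNA and protein-coding genes, where the tRNAs are cut out of long transcripts of each strand and so separate the rRNAs and mRNAs. The strands are called heavy (H) and light (L). During replication by strand displacement, the parental H strand is displaced and stays single-stranded until the L strand, which starts once the light-strand origin is exposed, is copied from it, which makes single-stranded DNA in mitochondria depend on strand and position. The question was how many 3′-OH termini lay in the tRNA genes on each strand, how that changed with P1, and how it compared with the bases beside the genes.

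Genes named in the results by their extreme values are shown here with their sequences, from the GRCh37 reference, 5′ to 3′ along the tRNA. Capitals mark the first 7 bases and the last 8 bases, which hold the acceptor stem and the base after it. MT-TR, MT-TP and MT-TT carry arginine, proline and threonine and had the largest H-strand changes at 1 U. MT-TS1, MT-TM and MT-TI carry serine, methionine and isoleucine and had the smallest. MT-TQ, MT-TD and MT-TK carry glutamine, aspartate and lysine and stood apart from their flanks.
MT-TR: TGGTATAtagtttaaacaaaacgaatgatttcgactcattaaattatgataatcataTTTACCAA
MT-TP: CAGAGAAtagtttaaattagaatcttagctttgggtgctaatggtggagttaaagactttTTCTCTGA
MT-TT: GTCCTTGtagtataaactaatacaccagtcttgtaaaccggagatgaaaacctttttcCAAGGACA
MT-TS1: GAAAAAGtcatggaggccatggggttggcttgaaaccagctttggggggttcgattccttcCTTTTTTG
MT-TM: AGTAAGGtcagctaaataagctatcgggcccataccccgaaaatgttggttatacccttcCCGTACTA
MT-TI: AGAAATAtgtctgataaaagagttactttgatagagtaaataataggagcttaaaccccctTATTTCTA
MT-TQ: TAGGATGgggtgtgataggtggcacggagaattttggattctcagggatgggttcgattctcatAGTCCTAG
MT-TD: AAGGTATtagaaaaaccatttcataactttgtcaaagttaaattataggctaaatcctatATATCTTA
MT-TK: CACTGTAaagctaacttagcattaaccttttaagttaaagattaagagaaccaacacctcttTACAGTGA

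MT-TQ, MT-TS1, MT-TE and MT-TP, 4 of the 17, are annotated on the minus strand of the reference, and the other 13 are annotated on the plus strand. These signs are those of the annotation, also where bases are printed, and do not name H or L. MT-TI lies at chrM:4263-4331, MT-TQ at chrM:4329-4400 and MT-TM at chrM:4402-4469, so MT-TI and MT-TQ share 3 bases. MT-TS1 lies at chrM:7446-7514, MT-TD at chrM:7518-7585, MT-TK at chrM:8295-8364 and MT-TR at chrM:10405-10469. MT-TT lies at chrM:15888-15953 and MT-TP at chrM:15956-16023, next to the noncoding region (NCR). These are GRCh37 positions on a genome of 16569 bases, whereas positions in the deposited files reach 16571. The share of G and C under the occupied positions, averaged over both strands, was highest with the reference moved by 2 bases ahead of MT-TL1 (56.4%) and by 1 base from MT-TL1 on (55.8%), so MT-TF and MT-TV were moved by 2 bases and the other members by 1 where the genes are said to be moved. Single strands did not peak there. H was highest with 1 base less (57.5% and 54.7%) and L with 1 base more (60.7% and 60.5%). By base composition alone the move was thus uncertain by 1 base. The same move takes the annotated start of MT-TF, 577, to 579 and the annotated end of MT-TP, 16023, to 16024. These are the bounds that the study gives for its regions beside the NCR. All other values use the annotated positions.

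The samples held 29622 to 692989 mitochondrial termini. Positions before 579 and after 16024 were taken as the NCR, and 20536 to 229564 termini lay outside it. The lowest totals outside the NCR were those of 10 U, with 31270, 43536 and 20536, and of untreated replicate 1, with 37357. The members held 4.32% to 6.76% of the termini outside the NCR. The densities below are termini per kb per 1000000 termini outside the NCR, and an even spread over both strands would give 32371 on each. Since both strands share 1 total, a higher share on H leaves a lower share for L, and the H/L ratio is free of that total. It was not stated whether PCR duplicates were removed, so the replicates carry the error and counts are not counts of molecules. Nothing but the term biological replicate tells how the cultures were kept apart.

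The density of termini in the 17 genes rose on the H strand and fell on the L strand with P1. On H it was 20485, 19101 and 19727 in the untreated samples, 19746, 20802 and 21417 at 0.01 U, and 39555, 41046 and 42928 at 0.1 U. It was 46761, 45434 and 52640 at 1 U and 21860, 20738 and 28053 at 10 U. The values at 0.1 U and 1 U lay above all others, whereas those at 10 U were above the untreated values but nearer to them than to those at 1 U. The mean at 1 U was 48278 ± 3835 against 19771 ± 693 without P1 (SD, n = 3 each), a factor of 2.44. The 5 amounts differed (p = 0.000278, exact two-sided permutation test of their spread within replicate numbers, 14400 arrangements). A single amount against the untreated samples cannot go below an exact two-sided p of 0.25.

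On L the density was 17930, 20737 and 19809 in the untreated samples, 18953, 18353 and 18635 at 0.01 U, and 12682, 12368 and 10836 at 0.1 U. It was 9676, 7047 and 5463 at 1 U and 15729, 16373 and 12603 at 10 U. Every sample that had received at least 0.1 U lay below every untreated sample. The geometric mean fell to 0.37 of the untreated level at 1 U, and the 5 amounts differed (exact permutation p = 0.000139).

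The H/L ratio of the 17 genes was 1.14, 0.921 and 0.996 in the untreated samples, and 1.04, 1.13 and 1.15 at 0.01 U. It reached 3.12, 3.32 and 3.96 at 0.1 U and 4.83, 6.45 and 9.64 at 1 U, and the 10 U samples had 1.39, 1.27 and 2.23. Termini were thus spread about evenly between the strands without P1 and lay mostly on H at 0.1 U and 1 U. The mean was 1.02 ± 0.113 without P1 and 6.97 ± 2.44 at 1 U (SD, n = 3 each), and the amounts differed (exact permutation p = 0.000139). The 4 genes annotated on the minus strand had an H/L ratio of 7.55 ± 3.25 at 1 U and the other 13 had 6.68 ± 2.05 (SD, n = 3 each). The ratio of one to the other was 0.977 ± 0.235 without P1, 1.24 ± 0.0709 with 0.1 U and 1.1 ± 0.136 with 1 U (SD, n = 3 each), and its spread over the amounts did not pass the test (exact permutation p = 0.109). Without MT-TQ the factor of this ratio at 1 U was 0.888 in place of 1.15. Coding strand and place on the genome cannot be told apart for these genes.

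**Figure D1:**
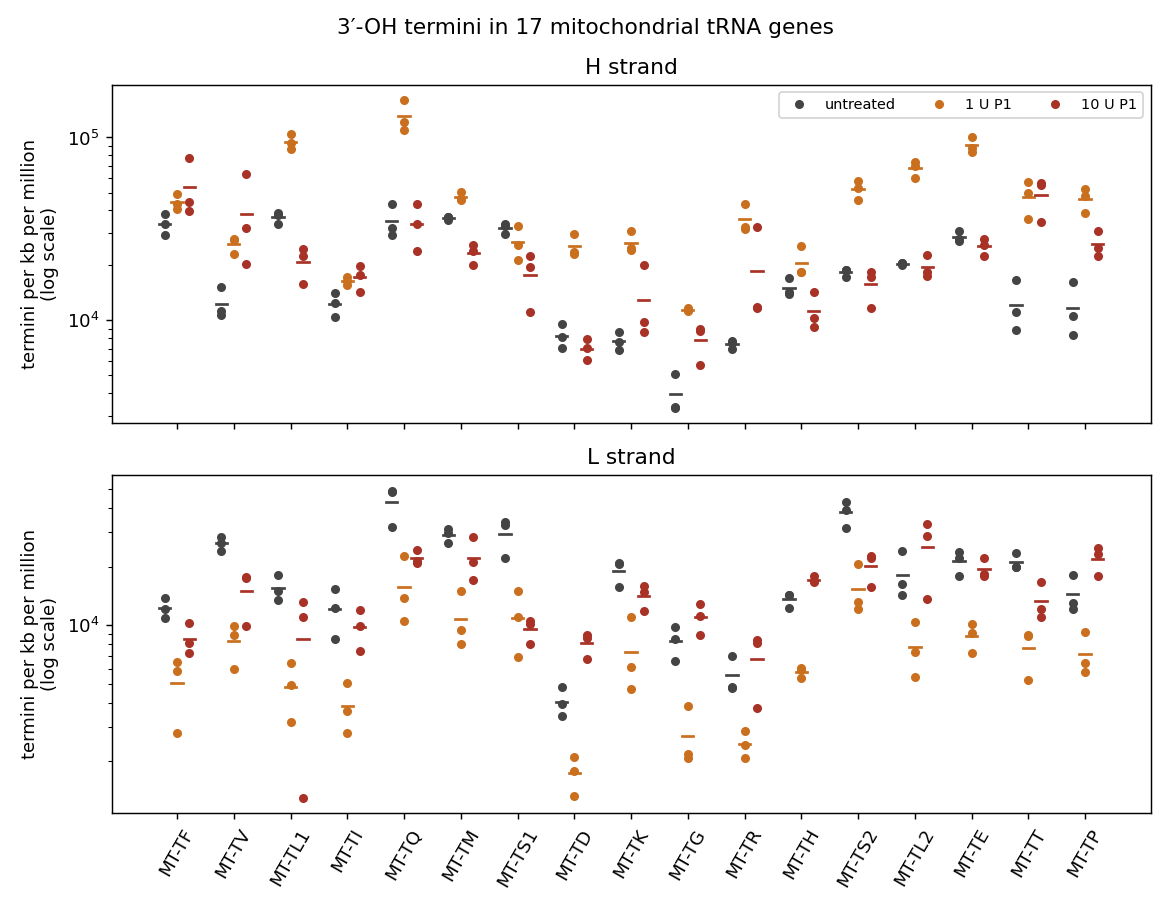
Density of 3′-OH termini in each of the 17 tRNA genes on the H strand (top) and the L strand (bottom), in termini per kb per 1000000 termini outside the NCR on a log axis, in genome order. Points are the 3 replicates and bars their means, for the untreated samples, 1 U and 10 U of P1. On H the samples at 1 U lie above the untreated ones in most genes but not in MT-TS1, whose direction turned with DESeq2's size factors, and on L they lie below.

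Gene by gene, the P1 amounts were compared with the untreated samples by edgeR's quasi-likelihood test over all 74 gene and strand features, with Benjamini-Hochberg adjustment. At 0.01 U, none of the 34 member features passed, and 2 of them had an unadjusted p under 0.05, both on L. DESeq2 also gave 0. At 0.1 U, 15 of 17 members rose on H, where 89.2% of all H features did, and 17 of 17 fell on L, where 100% of all L features did. MT-TF, the phenylalanine tRNA gene, and MT-TV, the valine tRNA gene, did not pass on H at 0.1 U, with folds of 1.05 and 1.12. At 1 U, 16 of 17 members rose on H against 91.9% of all H features, and 17 of 17 fell on L against 100%. These shares are near those of all mitochondrial genes. With unique sites (each position and strand counted once) the member features called at 1 U went from 33 to 18 on both strands together, of which 13 were higher on H and 5 lower on L. The median log2 fold change of the members at 1 U was 1.59 on H, beside 1.02 for all H features, and -1.47 on L, beside -1.41 for all L features. With DESeq2's size factors the members' medians were 2.35 on H and -0.77 on L.

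The members with the largest H-strand change at 1 U were MT-TR, MT-TP and MT-TT. On the H strand, the density in MT-TR was 7001, 7747 and 7503 in the untreated samples, 8882, 9165 and 7620 at 0.01 U and 20214, 21080 and 28884 at 0.1 U, and it was 32398, 31772 and 43200 at 1 U and 11808, 11661 and 32214 at 10 U. Every value at 1 U was above every untreated value, and 1 replicate stood apart at 10 U. The log2 fold change at 1 U was 2.27 (SE 0.24), a fold of 4.81 (edgeR adjusted p = 6.31e-07). On the H strand, the density in MT-TP was 16140, 8270 and 10505 in the untreated samples, 10333, 10363 and 12100 at 0.01 U and 36858, 41160 and 52273 at 0.1 U, and it was 48041, 38579 and 52139 at 1 U and 22574, 24996 and 30792 at 10 U. The groups at 0.1 U and 1 U did not overlap the untreated samples, and the log2 fold change at 1 U was 2.11 (SE 0.19; edgeR adjusted p = 1.55e-07). On the H strand, the density in MT-TT was 16629, 11097 and 8846 in the untreated samples, 11528, 12989 and 14525 at 0.01 U and 41427, 49393 and 51547 at 0.1 U, and it was 56792, 35801 and 49508 at 1 U and 55237, 56032 and 34677 at 10 U. Here the values at 10 U stayed at the level of 1 U, in contrast to MT-TP beside it. The log2 fold change was 2.05 (SE 0.24) at 1 U (edgeR adjusted p = 1.83e-06) and 2.12 (SE 0.26) at 10 U (edgeR adjusted p = 5.69e-05).

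The members with the smallest H-strand change at 1 U were MT-TS1, MT-TM and MT-TI. On the H strand, the density in MT-TS1 was 29484, 32886 and 33747 in the untreated samples, 35091, 33166 and 38322 at 0.01 U and 47001, 45834 and 46781 at 0.1 U, and it was 32933, 21504 and 25897 at 1 U and 11123, 19641 and 22583 at 10 U. MT-TS1 was higher at 0.1 U (log2 fold change 0.52, SE 0.18, edgeR adjusted p = 0.0123) and its values at 1 U overlapped the untreated ones, with a log2 fold change of -0.27 (SE 0.18; edgeR adjusted p = 0.15). At 10 U it fell, with a log2 fold change of -0.87 (edgeR adjusted p = 0.00411). With DESeq2's size factors its value at 1 U turned to 0.44, and without replicate 1 it was -0.5 and passed the test. On the H strand, the density in MT-TM was 35429, 36639 and 36768 in the untreated samples, 33962, 37393 and 37006 at 0.01 U and 42889, 47654 and 43945 at 0.1 U, and it was 50489, 45624 and 45883 at 1 U and 25866, 23983 and 20051 at 10 U. The log2 fold change of MT-TM was 0.38 (SE 0.11) at 1 U (edgeR adjusted p = 0.00514) and -0.63 (SE 0.14) at 10 U (edgeR adjusted p = 0.00175). On the H strand, the density in MT-TI was 10475, 12415 and 14036 in the untreated samples, 14335, 14003 and 13198 at 0.01 U and 19593, 22117 and 21528 at 0.1 U, and it was 16499, 15707 and 17183 at 1 U and 14368, 17643 and 19760 at 10 U. The log2 fold change of MT-TI at 1 U was 0.4 (SE 0.14; edgeR adjusted p = 0.0124), and it did not pass without replicate 1 or without replicate 2 (values 0.31 and 0.43). MT-TF had the same rounded value on H at 1 U, 0.4 (SE 0.18; edgeR adjusted p = 0.0462).

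On L, MT-TP and MT-TR fell least at 1 U, and MT-TV and MT-TI fell most. On the L strand, the density in MT-TP was 18108, 13079 and 12121 in the untreated samples, 13163, 13782 and 13745 at 0.01 U and 11504, 10027 and 9481 at 0.1 U, and it was 9264, 6430 and 5756 at 1 U and 24925, 23307 and 17903 at 10 U. The log2 fold change at 1 U was -0.98 (SE 0.16; edgeR adjusted p = 4.26e-05), and at 10 U MT-TP was above the untreated level with 0.66 (SE 0.18; edgeR adjusted p = 0.00541). On the L strand, the density in MT-TR was 7001, 4829 and 4755 in the untreated samples, 3925, 5141 and 4547 at 0.01 U and 3739, 2598 and 2413 at 0.1 U, and it was 2423, 2862 and 2095 at 1 U and 8364, 8128 and 3746 at 10 U. The fall at 1 U was -1.09 (SE 0.23; edgeR adjusted p = 0.000327), and MT-TR at 10 U was not apart from the untreated samples by the test, with 0.42. At 10 U MT-TR held only 17, 23 and 5 L-strand termini. With DESeq2's size factors neither MT-TP nor MT-TR passed on L at 1 U. On the L strand, the density in MT-TV was 24053, 28432 and 26579 in the untreated samples, 26789, 22742 and 21187 at 0.01 U and 14860, 14023 and 14773 at 0.1 U, and it was 9978, 8966 and 6002 at 1 U and 17612, 17643 and 9880 at 10 U. Its 3 groups from 0.1 U on lay below all untreated values, with a log2 fold change of -1.7 (SE 0.17; edgeR adjusted p = 5.12e-07) at 1 U. On the L strand, the density in MT-TI was 8535, 15353 and 12344 in the untreated samples, 10702, 10529 and 10651 at 0.01 U and 5614, 6494 and 5934 at 0.1 U, and it was 5087, 3640 and 2795 at 1 U and 7416, 11984 and 9880 at 10 U. The log2 fold change of MT-TI on L at 1 U was also -1.7 (SE 0.22; edgeR adjusted p = 5.05e-06).

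At 10 U the members no longer moved one way. On H, 7 rose, where 54.1% of all H features did, and 3 fell, where 8.11% did. The 7 were MT-TF, MT-TV, MT-TI, MT-TG, MT-TR, MT-TT and MT-TP, and the 3 were MT-TL1, one of the leucine tRNA genes, MT-TM and MT-TS1. On L, 2 members were higher, MT-TD and MT-TP, where 5.41% of all L features were, and 5 were lower, where 45.9% were. MT-TD had a log2 fold change of 0.93 (SE 0.24; edgeR adjusted p = 0.00411) and MT-TS1 had the largest fall with -1.72 (SE 0.3; edgeR adjusted p = 0.000436). These L-strand values at 10 U rested on few termini, 19, 20 and 12 in MT-TD and 22, 24 and 15 in MT-TS1. Without replicate 2 the count of member features called at 10 U went from 17 to 10, and at 0.1 U from 32 to 21.

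The tRNA genes held fewer termini than the bases beside them. The flanks were the 50 bases on each side of each gene, without bases of any tRNA gene, 1106 bases in all. On H, the density in the genes over that in the flanks was 0.612, 0.541 and 0.542 in the untreated samples, and 0.536, 0.558 and 0.555 at 0.01 U. It reached 0.738, 0.779 and 0.737 at 0.1 U and 0.768, 0.74 and 0.754 at 1 U, and the 10 U samples had 0.4, 0.375 and 0.457. All 15 samples lay below 1 (exact two-sided sign-flip p = 6.1e-05, the smallest that 15 samples can give). The sign-flip test speaks for the repeat of the ratio over libraries, not for the spread among genes. The ratio was highest at 0.1 U and 1 U and lowest at 10 U, and the amounts differed (exact permutation p = 0.00111). The low values at 10 U came with many termini in the 10 bases after the genes, described below, and with those bases left out of the flanks the ratio was 0.608, 0.566 and 0.762 at 10 U against 0.624, 0.541 and 0.542 without P1, so that 10 U was no longer lowest. On L, the ratio was 0.575, 0.527 and 0.533 in the untreated samples, and 0.508, 0.533 and 0.511 at 0.01 U. It stood at 0.533, 0.546 and 0.559 at 0.1 U and 0.536, 0.538 and 0.546 at 1 U, and the 10 U samples had 0.7, 0.644 and 0.556. Again all 15 samples lay below 1 (exact two-sided sign-flip p = 6.1e-05). The spread over the amounts gave an exact permutation p = 0.0324 on L, which several other settings took above 0.05, and with unique sites the 10 U level over the untreated one turned from 1.16 to 0.93. MT-TF and MT-TP border on the NCR, and with the NCR left out of the flanks the geometric mean ratio on H at 1 U was 0.931 in place of 0.754.

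The H/L ratio of the flanks was 0.983 ± 0.0874 without P1, 5.01 ± 1.83 with 1 U and 2.44 ± 0.265 with 10 U (SD, n = 3 each). That of the genes over that of the flanks was 1.07, 1.03 and 1.02 in the untreated samples, and 1.06, 1.05 and 1.09 at 0.01 U. It reached 1.38, 1.43 and 1.32 at 0.1 U and 1.43, 1.38 and 1.38 at 1 U, and the 10 U samples had 0.572, 0.582 and 0.822. The strand bias of the tRNA genes was thus larger than that of their flanks at 0.1 U and 1 U and smaller at 10 U (exact permutation p = 0.000625 for the spread over the amounts). Without the 10 bases after the genes, the 10 U samples had 0.84, 0.894 and 1.4 and lay on both sides of 1, while those at 1 U had 1.6, 1.58 and 1.56 (exact permutation p = 0.0177 over the 5 amounts).

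The 5 tRNA genes beside the light-strand origin were compared in the same way. Over the 15 samples, their geometric mean ratio over flanks was 1.02 on H and 0.263 on L, whereas that of the 17 genes was 0.591 on H and 0.554 on L. The 17 genes were lower than the 5 on H in 15 of 15 samples, by a factor of 0.576, and higher on L in 15 of 15, by a factor of 2.11 (exact two-sided sign-flip p = 6.1e-05 each). The test is over libraries and does not cover the spread among genes. The 5 genes lie close together, so their flanks without bases of any tRNA gene are few short stretches. In the 10 bases after MT-TY, the mean untreated density was 140596 on H and 227372 on L. After MT-TN it was 21439 and 47116. How far the differences between the 5 and the 17 genes came from these flanks was not tested.

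**Figure D2:**
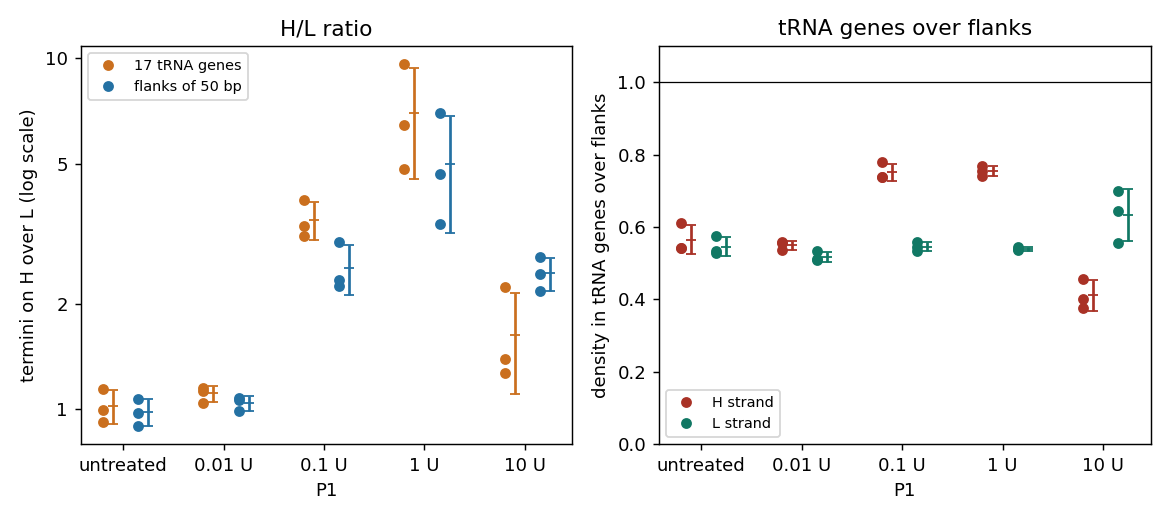
Left, the H/L ratio of termini in the 17 tRNA genes and in their flanks of 50 bp on a log axis. Right, the density in the tRNA genes over that in the flanks on each strand, with a line at 1. Points are replicates and bars the mean ± SD (n = 3). The genes lie above the flanks in H/L ratio at 0.1 U and 1 U and below at 10 U, where leaving out the 10 bases after the genes gave 0.84, 0.894 and 1.4 times the flanks, and all ratios on the right lie below 1.

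The single genes differed widely from their flanks, here taken as the 50 bases on each side as they lie. In the untreated samples 13 of 17 members had a ratio below 1 on H and 14 of 17 on L, against 20 of all 37 genes on each strand. Their medians were 0.561 and 0.549, beside 0.887 and 0.891 for all 37 genes. Members lie in the flanks of many other genes, so those genes are not an independent background. At 1 U, 10 of 17 members were below 1 on H and 14 of 17 on L, for which the share of all genes was not counted. The spread over the amounts was tested per gene by the exact permutation test with Benjamini-Hochberg adjustment over all 74 features. On H, 11 of 17 members passed, against 62.2% of all 37 H features. Of the 11, 8 had a higher ratio at 1 U than without P1, MT-TI and MT-TM a lower one, and MT-TL2, the other leucine tRNA gene, 1.15 in both. MT-TQ lies in the flanks of MT-TI and of MT-TM. Its mean H-strand density went from 34841 without P1 to 130613 at 1 U. Those of MT-TI and MT-TM themselves went from 12309 to 16463 and from 36279 to 47332. On L, 4 passed, against 27% of all L features. With unique sites 4 of the 34 member features passed in place of 15. With any replicate left out 0 did, where fewer arrangements remain and the smallest possible exact p is larger.

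The highest untreated ratios on H were those of MT-TS1 and MT-TQ. The ratio of MT-TS1 over its flanks on the H strand was 1.47, 1.8 and 1.71 in the untreated samples, 1.78, 1.57 and 1.67 at 0.01 U and 2.08, 1.91 and 1.95 at 0.1 U, and it was 1.42, 1.06 and 1.04 at 1 U and 0.664, 1.28 and 2 at 10 U. All of its untreated values were above 1, and the spread over the amounts did not pass (adjusted exact permutation p = 0.199). The ratio of MT-TQ over its flanks on the H strand was 2.12, 1.11 and 1.25 in the untreated samples, 1.19, 1.27 and 1.27 at 0.01 U and 3.81, 2.83 and 3.61 at 0.1 U, and it was 3.84, 4.38 and 5.51 at 1 U and 1.67, 1 and 2.21 at 10 U. MT-TQ was above its flanks in nearly every sample, and most so at 0.1 U and 1 U (adjusted exact permutation p = 0.0157).

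The lowest untreated ratios on H were those of MT-TK and MT-TD. The ratio of MT-TK over its flanks on the H strand was 0.203, 0.179 and 0.131 in the untreated samples, 0.143, 0.142 and 0.118 at 0.01 U and 0.374, 0.333 and 0.344 at 0.1 U, and it was 0.497, 0.452 and 0.551 at 1 U and 0.153, 0.175 and 0.316 at 10 U. Its values at 0.1 U and 1 U lay above all untreated values (adjusted exact permutation p = 0.0107). The ratio of MT-TD over its flanks on the H strand was 0.188, 0.202 and 0.236 in the untreated samples, 0.213, 0.22 and 0.21 at 0.01 U and 0.321, 0.342 and 0.379 at 0.1 U, and it was 0.478, 0.504 and 0.578 at 1 U and 0.083, 0.0669 and 0.0861 at 10 U. The ratio of MT-TD rose in the same way up to 1 U and lay at 10 U below every untreated sample (adjusted exact permutation p = 0.00343). Its own H-strand density was 7054, 6080 and 7877 at 10 U against 7086, 8078 and 9596 without P1 (log2 fold change -0.27, edgeR adjusted p = 0.276), while the 10 bases after it, part of the flank, rose to a mean of 704441.

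On L, MT-TS2, the other serine tRNA gene, and MT-TQ were highest. The ratio of MT-TS2 over its flanks on the L strand was 1.74, 2.74 and 2.85 in the untreated samples, 2.55, 2.35 and 2.9 at 0.01 U and 2.47, 2.55 and 2.68 at 0.1 U, and it was 2.51, 2.47 and 1.92 at 1 U and 1.43, 1.4 and 1.3 at 10 U. Its spread over the amounts did not pass (adjusted exact permutation p = 0.0658). The ratio of MT-TQ over its flanks on the L strand was 1.75, 1.91 and 2.08 in the untreated samples, 2.12, 2.06 and 1.85 at 0.01 U and 2.33, 2.07 and 1.8 at 0.1 U, and it was 2.11, 2.09 and 1.86 at 1 U and 1.81, 1.15 and 1.99 at 10 U. MT-TQ was above 1 in all 15 samples, with no change that passed (adjusted exact permutation p = 0.437).

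MT-TD and MT-TH, the histidine tRNA gene, were lowest on L. The ratio of MT-TD over its flanks on the L strand was 0.179, 0.16 and 0.114 in the untreated samples, 0.103, 0.0848 and 0.104 at 0.01 U and 0.115, 0.131 and 0.105 at 0.1 U, and it was 0.135, 0.242 and 0.2 at 1 U and 0.745, 0.957 and 0.668 at 10 U. The ratio of MT-TD at 10 U was above every other group (adjusted exact permutation p = 0.0118). The gene held only 19, 20 and 12 L-strand termini at 10 U and 10, 50 and 34 without P1. The ratio of MT-TH over its flanks on the L strand was 0.271, 0.213 and 0.197 in the untreated samples, 0.217, 0.228 and 0.195 at 0.01 U and 0.241, 0.249 and 0.262 at 0.1 U, and it was 0.187, 0.289 and 0.356 at 1 U and 0.634, 0.672 and 0.628 at 10 U. MT-TH was also highest at 10 U, but did not pass (adjusted exact permutation p = 0.0517). The bases after MT-TH are those of MT-TS2, which itself held many L-strand termini.

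The GC content went with these ratios. The members together had 37.0% GC and their flanks 44.0%, and 12 of 17 members had less GC than their flanks. MT-TQ had 48.6% GC against 38.0% in its flanks, MT-TS1 49.3% against 34.0% and MT-TS2 45.8% against 39.0%. MT-TD had 23.5% against 50.0% and MT-TK 32.9% against 51.0%. Across the 17 genes, the difference in GC was compared with the log2 ratio of gene over flank. In the untreated samples the Pearson r was 0.84 on H and 0.867 on L. It was 0.599 and 0.862 at 1 U, and 0.797 and 0.455 at 10 U. The genes share the libraries and some of their flanks, and genes are not independent replicates. The part of base composition in the ratios was not tested.

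Termini inside the genes were spread unevenly over positions. Pooled over replicates, the position with the most termini held a median of 25.3% of a gene's H-strand termini without P1 and 16.3% at 1 U. At least 1 replicate had an H-strand terminus at 70.8% of the member positions without P1 and at 93.0% at 1 U, while for the L strand it was 66.8% and 61.7%, where the number of termini also differed.

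On H, the position with the highest share without P1 was 4394 of the files, in MT-TQ, with 803, 745 and 831 per 1000000 termini outside the NCR (scaled termini below). It had 658, 785 and 815 at 0.01 U and 1033, 792 and 832 at 0.1 U, then 657, 637 and 806 at 1 U and 128, 161 and 146 with 10 U. This position kept its level up to 1 U and was lower in all samples of 10 U. A position 4 bases on, 4398, was the highest at 1 U, with 1674, 1442 and 2428 scaled termini. It had 80.3, 78.5 and 110.0 without P1 and 71.6, 94.4 and 63.9 at 0.01 U, then 775, 565 and 693 at 0.1 U and 352, 207 and 925 with 10 U. At 1 U it was rank 3 of all H-strand positions outside the NCR and held 19.5% of the H-strand termini of MT-TQ, while without P1 it held 3.69%. These neighbouring positions of MT-TQ differed in how they went with the amount of P1. Each was picked for its rank, without P1 or at 1 U, which favours such a difference.

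The next positions on H without P1 were 641 in MT-TF and 3256 in MT-TL1. Position 641 had 482, 674 and 783 scaled termini without P1 and 609, 690 and 863 at 0.01 U, then 539, 714 and 610 at 0.1 U and 378, 479 and 414 at 1 U, and 128, 184 and 487 with 10 U. Position 3256 had 535, 379 and 508 without P1 and 398, 450 and 519 at 0.01 U, then 623, 675 and 645 at 0.1 U and 774, 772 and 936 at 1 U, and 64.0, 138 and 48.7 with 10 U. It was among the 3 highest both without P1 and at 1 U. Position 10467 in MT-TR had 756, 693 and 1083 at 1 U, where it held 36.0% of the gene's H-strand termini, against 26.8, 39.2 and 41.2 without P1. It had 53.7, 50.9 and 24.0 at 0.01 U, 190, 253 and 248 at 0.1 U and 352, 299 and 1169 at 10 U.

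On L, position 12241 in MT-TS2 led both without P1 and at 1 U, and 12242 beside it was among the 3 highest in both. Position 12241 had 509, 844 and 735 scaled termini without P1 and 797, 603 and 759 at 0.01 U, then 600, 533 and 405 at 0.1 U and 301, 219 and 170 at 1 U, and 384, 299 and 243 with 10 U. Position 12242 had 428, 445 and 529 without P1 and 506, 429 and 551 at 0.01 U, then 304, 286 and 244 at 0.1 U and 270, 163 and 159 at 1 U, and 320, 345 and 438 with 10 U. Both fell with the L strand as a whole up to 1 U. Position 4394 in MT-TQ had 134, 575 and 707 on L without P1 and 528, 429 and 423 at 0.01 U, then 403, 312 and 227 at 0.1 U and 274, 191 and 113 at 1 U, and 128, 91.9 and 195 with 10 U. Untreated replicate 1, the shallowest of its group, stood apart there. Position 8296 in MT-TK had 321, 477 and 584 without P1 and 582, 400 and 607 at 0.01 U, then 311, 312 and 248 at 0.1 U and 292, 181 and 113 at 1 U, and 95.9, 207 and 48.7 with 10 U, and it held 34.1% of the L-strand termini of its gene without P1 and 38.3% at 1 U.

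**Figure D3:**
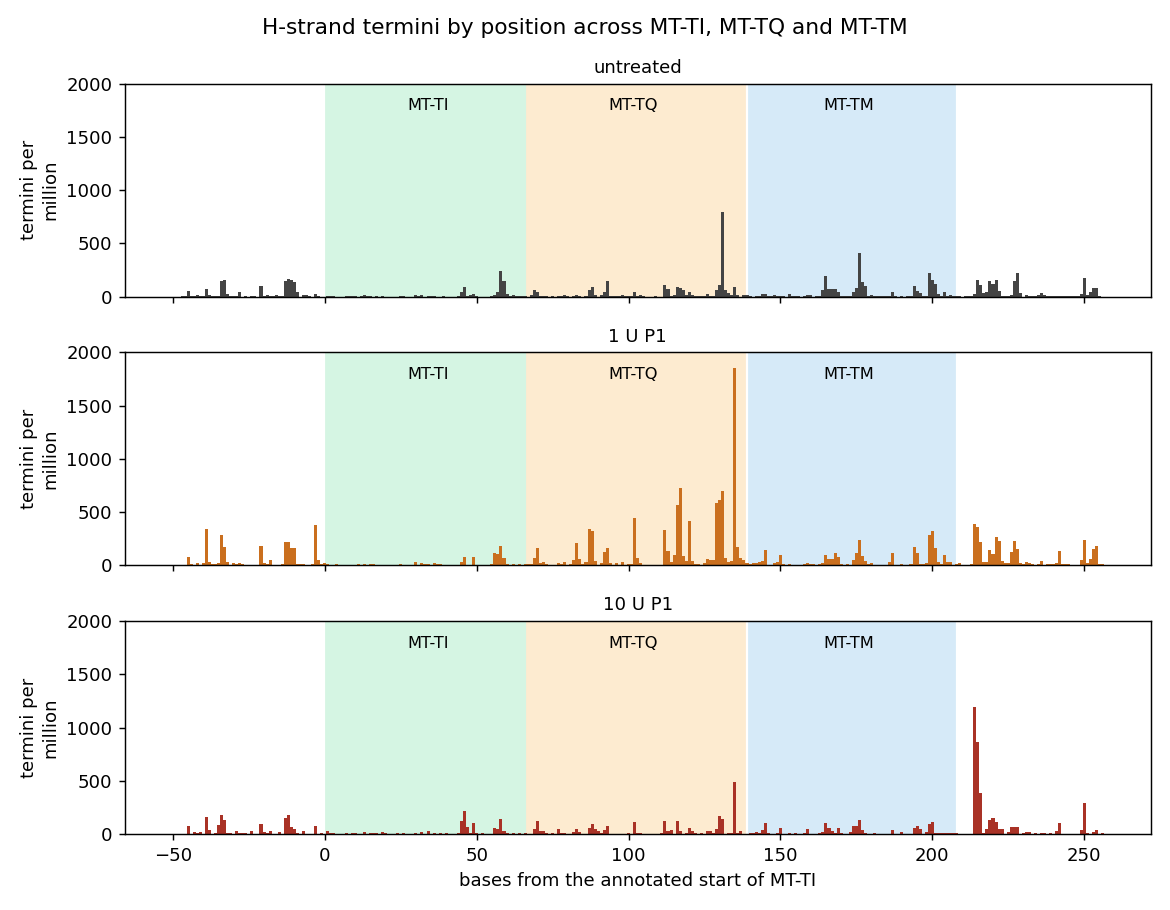
H-strand termini at each position across MT-TI, MT-TQ and MT-TM (shaded, moved by 1 base), in termini per 1000000 outside the NCR, mean of 3 replicates, against the distance from the annotated start of MT-TI. The highest position without P1 (793) and the highest at 1 U (1848) lie 4 bases apart in MT-TQ, and at 10 U the highest (1192) lies just after MT-TM.

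With the genes moved by the 2 or 1 bases above, the first 7 and last 8 bases were set against the rest of each gene. On H, the density of these ends over the rest was 0.595 ± 0.0463 without P1, and 0.62 ± 0.0535 at 0.01 U. It was 0.683 ± 0.0213 at 0.1 U, 0.897 ± 0.0526 at 1 U and 1.02 ± 0.135 with 10 U (SD, n = 3 for each), and the amounts differed (exact permutation p = 0.000417). The ends held fewer termini than the rest without P1 and about as many at 10 U. On L, it was 0.757 ± 0.0141 without P1 and 0.838 ± 0.0514 at 1 U (SD, n = 3 each; exact permutation p = 0.74 over the 5 amounts). At the annotated positions, the H-strand ratio was 1.09 ± 0.0474 without P1 and 1.34 ± 0.227 at 10 U (SD, n = 3 each; exact permutation p = 0.00688 over the 5 amounts), and with the genes moved by 1 base less it was 1.05 ± 0.0332 and 1.3 ± 0.193 (SD, n = 3 each; exact permutation p = 0.00347 over the 5 amounts). Whether the ends held fewer termini than the rest without P1 thus depended on 1 base of the offset. Of the settings compared, the move by 2 or 1 bases is the one that matches the study's bounds beside the NCR. This comparison was chosen after the data were seen.

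At 10 U the H-strand termini were highest just outside the genes, a pattern chosen after its values were seen and given as a description. In the 10 bases after the higher-coordinate end of the moved genes, the mean density over the 17 members was 28658, 26273 and 26344 in the untreated samples, 86024, 94012 and 105280 at 1 U and 150304, 151599 and 188192 at 10 U. It was 163365 ± 21511 at 10 U (SD, n = 3), or 4.86 times that of the next 40 bases, while without P1 it was 0.924 times. On L the same ratio was 0.677 at 10 U. The median H-strand density over the 17 members was lower than the mean, with 95234 at 10 U and 21892 without P1. With the genes moved by 1 base less, the H-strand mean was 137715 ± 21672 at 10 U and 21060 ± 1145 without P1 (SD, n = 3 each). In 11 of 17 members all 3 values at 10 U lay above all 3 untreated values, against 45.9% of all 37 genes.

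**Figure D4:**
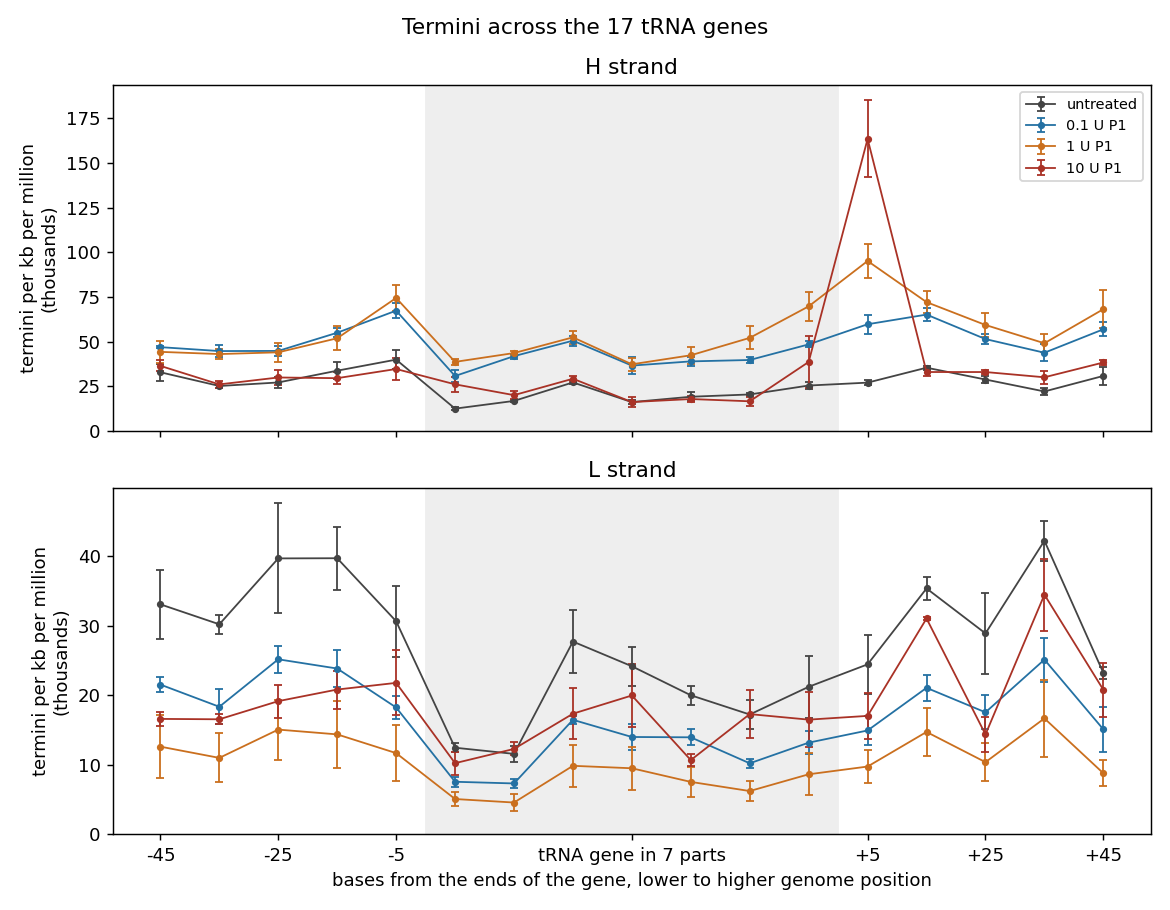
Density of termini across the 17 genes on the H strand (top) and the L strand (bottom), in units of 1000 termini per kb per 1000000 termini outside the NCR. The genes (shaded, moved by the offset) are divided into 7 parts, the bases on each side into bins of 10, and bars are SDs (n = 3). At 10 U the bin just after the genes stands at 163365 on H.

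Of the 17 members, 10 are followed on the genome by an rRNA or protein-coding gene, 6 by another tRNA gene and MT-TP by the NCR. Among the 10, the density in these bases was 262685 ± 39873 at 10 U and 36729 ± 2299 without P1 (SD, n = 3 each), and 9 of them had all values at 10 U above the untreated ones, the exception being MT-TG before MT-ND3. Among the 6 before a tRNA gene, it was 13596 ± 2645 at 10 U and 7475 ± 526 without P1 (SD, n = 3 each), with 2 of 6. The last 10 bases of some members and the 10 bases after them, in capitals, are shown along the plus strand of GRCh37, for 6 with a high density after the end at 10 U, for MT-TG and for MT-TI, which is followed by MT-TQ.
MT-TF: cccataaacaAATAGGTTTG
MT-TV: accgctctgaGCTAAACCTA
MT-TM: tcccgtactaATTAATCCCC
MT-TD: atatatcttaATGGCACATG
MT-TK: tttacagtgaAATGCCCCAA
MT-TR: tatttaccaaATGCCCCTCA
MT-TG: aaaaagagtaATAAACTTCG
MT-TI: cttatttctaGGACTATGAG

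The highest density was that after MT-TD, at the start of MT-CO2, with 50861, 77164 and 70062 in the untreated samples, 155240, 184193 and 191172 at 1 U and 719539, 712054 and 681730 at 10 U. After MT-TF, at the start of MT-RNR1, it was 61568, 75856 and 77618 in the untreated samples, 77845, 86050 and 57862 at 1 U and 460505, 567347 and 584340 at 10 U. For these genes the 10 U samples lay far above all others. After MT-TK it was 268628, 287119 and 282431 at 10 U against 45507, 26157 and 32970 without P1. After MT-TV, at the start of MT-RNR2, it was 195075, 140114 and 185041 at 10 U against 16061, 5885 and 8243 without P1. After MT-TG it was 12792, 6891 and 14608 at 10 U against 18738, 12425 and 12364 without P1, and these overlapped.

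Single positions carried much of this. Position 7589 of the files, after MT-TD, held 121, 167 and 77 termini at 10 U, or 3870, 3836 and 3750 per 1000000, against 134, 268 and 227 scaled termini without P1. It was rank 7 of the H-strand positions outside the NCR at 10 U and rank 419 without P1. Position 659, after MT-TF, had 2910, 3997 and 3750 scaled termini at 10 U against 348, 340 and 398 without P1. Over all 17 members, the 2578 termini of the 10 U samples in these bases lay at 239 occupied positions, summed over replicates. The first 10 bases, from the lower-coordinate end, of the 5 rRNA or protein-coding genes with no member before them were read in the same way, and in 3 of them all values at 10 U lay above all untreated ones. The density there went from 65298 ± 23442 without P1 to 173208 ± 13399 at 10 U for MT-CO1, from 23711 ± 10099 to 123550 ± 54783 for MT-CO3 and from 61072 ± 13367 to 168735 ± 5023 for MT-ND6 (SD, n = 3 each). For MT-ND4 it was 18815 ± 3814 and 20104 ± 13366, and for MT-ATP6 it was 3354 ± 1776 and 4012 ± 5091 (SD, n = 3 each). Higher densities at 10 U thus also occurred away from the members.

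**Figure D5:**
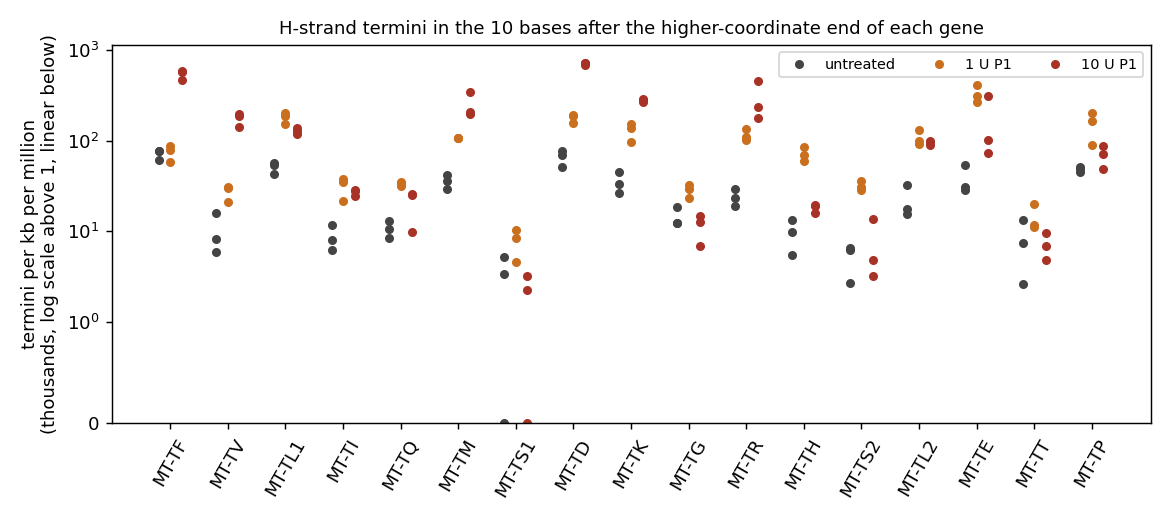
H-strand density in the 10 bases after the higher-coordinate end of each of the 17 genes (moved by the offset), in units of 1000 termini per kb per 1000000 termini outside the NCR, on an axis that is logarithmic above 1 and linear below. Points are the 3 replicates of the untreated samples, 1 U and 10 U of P1. The samples at 10 U stand highest after MT-TD and MT-TF, and after MT-TG they overlap the untreated samples.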

How the data were processed

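Human K562 nuclei were profiled with SSiNGLe-P1 in 15 samples, grouped by their deposited titles. The authors aligned trimmed reads with BWA-MEM (BWA 0.7.12, per the labels) to the mitochondrial genome alone and deposited, for each position and strand, the count of 3′-OH termini and the same value as RPM. The deposited RPM values and the nuclear and region files (SICER 1.1) were not used here. The plus label of the deposited files was taken as H, and it was not equated with the plus strand of the GRCh37 annotation.

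Genes came from GENCODE release 44 on GRCh37. Counts in genes and flanks were summed with Python 3.11.15. The per-sample values were tested on log2 by exact permutation within replicate numbers, because the study pairs samples by number. A pseudocount of 0.5 termini was used only for single genes. Gene counts were tested with edgeR 4.0.16 with the replicate number as block, with termini outside the NCR as library size and a threshold of 0.05, in R 4.3.3. DESeq2 1.42.0 was an alternative. The edgeR and permutation tests were tested on simulated data. Named genes were those with the highest and lowest H-strand (3 each) and L-strand (2 each) log2 fold changes at 1 U, the 2 highest and 2 lowest untreated ratios over flanks per strand, the 4 on the minus strand and, per strand, the 3 highest positions without P1 and at 1 U. The members, lists and tests were chosen with earlier results of these data known.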

Additional observations from a re-analysis of the deposited data

How the results depend on the processing

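The alternatives were no block for the replicate number, unique sites (each position and strand counted once), thinning to the smallest sample, moved gene positions, other flanks and pseudocounts, TMM and DESeq2 scaling, and omission of each replicate, with those on the moved offset, MT-TF and MT-TV, MT-TQ and the 10 bases after each gene added after seeing the data. Of 303 recomputed values, 269 stayed on their side of the threshold or within 1.5 times.

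The H- and L-strand densities, the H/L ratio, the H-strand ratio over flanks and the H/L ratio over that of flanks kept their direction at 1 U and their call in each alternative run. At 10 U the H-strand ratio over flanks was 0.725 of the untreated level and turned to 1.13 without the 10 bases after each gene, staying below 1 in the other 17 of 18 settings, and the H/L ratio over that of flanks, 0.626 of the untreated level, ranged from 0.505 to 0.965. The L-strand ratio over flanks, whose 10 U level was 1.16 times the untreated one, turned to 0.93 with unique sites and 0.963 with flanks of 100 bp without the NCR. It lost its call at 1.16 with thinning, 1.21 without MT-TQ, 1.17 with flanks of 25 bp, 1.34 as the median of the single genes, and 1.13 to 1.22 with a replicate left out. The cause was not tested. The factor of the minus-strand over the plus-strand genes went from 1.15 to 0.894 with unique sites, 0.888 without MT-TQ and 0.987 to 1.35 with a replicate left out.

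Unique sites lowered the calls among member features to 11 at 0.1 U, 18 at 1 U and 2 at 10 U, and those over flanks to 4. With a replicate left out the calls were 21 to 30 at 0.1 U and 10 to 16 at 10 U, both lowest without replicate 2, and 0 over flanks, where 6 to 14 had an unadjusted exact permutation p under 0.05. Scaling mattered at 1 U: the members' median log2 fold change on H was 1.59, with TMM 1.93 and with DESeq2 2.35, and on L -1.47, -1.15 and -0.77, and MT-TS1 turned to 0.44 with DESeq2. Same-numbered samples deviated together only weakly (median correlation 0.0365 over 30 pairs, 13 of them above 0.1). Without the replicate block the member features called were 32 at 0.1 U, 32 at 1 U and 18 at 10 U, against 32, 33 and 17 with it. The samples of 10 U and untreated replicate 1 rest on 20536 to 43536 termini outside the NCR.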
